A study of Mus musculus with 4 samples.

Results

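The 10 genes described here encode the MHC class I molecules of the mouse and part of the machinery that fills them with peptide. H2-K1 and H2-D1 are the classical heavy chains. B2m is the light chain that every class I heavy chain binds. H2-M2, H2-Q7 and H2-T23 are nonclassical heavy chains. Tap1 and Tap2 are the subunits of the transporter that brings peptides into the endoplasmic reticulum, Tapbp (tapasin) holds empty class I molecules to that transporter, and Nlrc5 is a transactivator that acts on class I promoters. The genes were chosen by symbol, with no measured value in the rule, from the 55418 gene entries of the count matrices, and all 10 were found. All 10 also passed the filter on low counts in both models described here. H2-K1, H2-Q7, H2-M2 and B2m had been picked by the study from these same libraries as genes of Cx3cr1+ macrophages, so their direction in those cells is not independent evidence.

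MHC class I molecules are carried by nearly all nucleated cells and show peptides cut by the proteasome in the cytosol to CD8 T cells. In the thymus, developing T cells are selected on them, and the presenting cells include dendritic cells (DCs), macrophages and epithelial cells. Transcription of the classical genes runs through a conserved promoter module, the SXY module, on which Nlrc5 works together with the RFX, CREB and NF-Y factors, and through binding sites for NF-κB and interferon regulatory factors.

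Of the 10 genes, 8 lie on chromosome 17. In GRCm39, the build named for the files, Tapbp starts at 34134873, H2-K1 spans 34214987 to 34219321 on the minus strand, and Tap1 (34405996 to 34416199) and Tap2 (34422501 to 34435829) are neighbours on the plus strand. H2-D1 (35481691 to 35486475), H2-Q7 (35658131 to 35662749), H2-T23 (36340229 to 36345571) and H2-M2 (37791742 to 37794472) follow in that order along the chromosome. B2m lies on chromosome 2 (121977957 to 121983594) and Nlrc5 on chromosome 8 (95160984 to 95253900).

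The promoters of 5 members are shown because these genes differed in where they were expressed: H2-K1, H2-D1 and B2m were found in nearly every cell, and H2-M2 in few classes. Each line holds the 200 bases before the transcription start in RefSeq, build GRCm38.p6, and 8 of the 10 members had an entry in that table. Capitals mark matches, on either strand, to GGGGATTCC (an NF-κB site), GTTTC followed after any 2 bases by TTC (an interferon response element), TGACG (the core of the X2 box) and CCAAT (the core of the Y box). In these lines no match overlapped another. The stretches lie at chr17:34000348-34000547 on the minus strand (H2-K1), chr17:35262894-35263093 on the plus strand (H2-D1), chr17:35438955-35439154 on the plus strand (H2-Q7), chr17:37483555-37483754 on the minus strand (H2-M2) and chr2:122147487-122147686 on the plus strand (B2m).
H2-K1: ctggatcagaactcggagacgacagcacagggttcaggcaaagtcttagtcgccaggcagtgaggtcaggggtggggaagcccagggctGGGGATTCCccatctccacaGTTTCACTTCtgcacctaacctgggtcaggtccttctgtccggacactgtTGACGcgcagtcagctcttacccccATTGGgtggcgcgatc
H2-D1: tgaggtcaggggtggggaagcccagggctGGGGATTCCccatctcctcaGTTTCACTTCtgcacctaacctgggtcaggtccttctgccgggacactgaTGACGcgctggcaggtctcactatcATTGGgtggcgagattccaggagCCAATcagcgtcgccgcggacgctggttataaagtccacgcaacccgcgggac
H2-Q7: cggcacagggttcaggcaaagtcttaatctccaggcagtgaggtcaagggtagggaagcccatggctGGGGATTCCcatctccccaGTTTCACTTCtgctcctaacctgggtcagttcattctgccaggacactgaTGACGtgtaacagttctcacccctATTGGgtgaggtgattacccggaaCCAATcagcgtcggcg
H2-M2: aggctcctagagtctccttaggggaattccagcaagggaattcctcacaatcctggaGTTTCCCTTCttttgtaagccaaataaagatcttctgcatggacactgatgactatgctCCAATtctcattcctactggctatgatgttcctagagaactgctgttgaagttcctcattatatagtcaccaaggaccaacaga
B2m: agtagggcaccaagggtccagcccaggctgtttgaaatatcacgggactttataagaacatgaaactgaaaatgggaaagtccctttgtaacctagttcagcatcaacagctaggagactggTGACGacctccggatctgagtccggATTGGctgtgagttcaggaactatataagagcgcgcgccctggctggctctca

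In the 250 bases before the start, H2-K1, H2-D1 and H2-Q7 held all 4 motifs. Only 3 of 27025 mouse promoters, or 0.0111%, did so. The motifs were chosen as sites known from class I promoters, so this rarity is not independent evidence. Singly the motifs were found in 0.218% (GGGGATTCC), 1.47% (the interferon element), 17.9% (TGACG) and 34.5% (CCAAT) of these promoters. The H2-M2 window held 3 of the 4, with the interferon element read as GTTTCCCTTC, the TGACG match outside the stretch shown, and no GGGGATTCC. B2m and Tap1 held 2 (TGACG and CCAAT), and H2-T23 and Tapbp 1 (CCAAT). A match is a description of the letters in the window and not evidence that a factor binds there. Only the 4 patterns given were searched, so a window without a match may hold another form of the site.

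The study sorted reporter-positive myeloid cells from Percoll-enriched thymus of C57BL/6 mice for 10x 3′ single-cell RNA sequencing. There were 2 libraries of GFP+ cells from MAFIA mice aged 5 weeks (genotype Csf1r-EGFP-NGFR/FKBP1A/TNFRSF6, in which the Csf1r promoter drives GFP together with a drug-inducible death receptor). The other 2 libraries held YFP+ cells from Cd11cYFP mice aged 9 weeks (genotype Itgax-Venus, in which the Itgax promoter drives the fluorescent protein). According to the methods the MAFIA mouse was female and the Cd11cYFP mice male, so that reporter, age, sex and library cannot be told apart. They describe 1 MAFIA mouse and 2 Cd11cYFP mice with a sample each, and the mouse behind MAFIA replicate 1 is not given in the sources used here. The p-values measure how differences between classes vary from library to library, and not the spread of levels between libraries. In the model of all classes this variation is pooled over the classes, with 21 residual degrees of freedom. It comes from only 3 libraries, in which animal and library cannot be told apart.

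The libraries held 5500 to 9737 barcodes, of which 5493 to 9684 passed the study's limits on genes and mitochondrial reads, and any pair of libraries shared 10 to 25 barcodes. MAFIA replicate 1 stood apart, with a median of 3981 unique molecular identifiers (UMIs, counted transcripts) per cell against 15759 to 17493 in the others. It is described only as a whole library at the end of the text. Comparisons of cell classes rest on the 23549 cells of MAFIA replicate 2 and Cd11cYFP replicates 1 and 2, and values are always given in that order. Cells were clustered without the 10 members or the related genes counted here, and clusters were named from 7 markers per class, so the names mean that cells are like the type named. In this way 19884 cells (84.4%) fell into 9 large classes, 2662 cells (11.3%) in clusters with markers of more than 1 class were left out, and 707 stayed unnamed. All 7 markers of each class were found in its own cells in each library.

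Levels are given in CPM, the UMIs of a gene relative to all UMIs summed over the cells of a class in a library, on the usual scale of that unit. Fold changes are from edgeR on the same sums, scaled by TMM and with the library as a block, and a call is an adjusted p under 0.05 over all 18002 genes tested. On a plain-total scale the median log2 fold change of all genes moved by -0.31 (Ccr7+ DCs against Cd209a+ DCs) to 0.44 (thymocytes against other classes), and CPM values share that plain scale. The 3′ counts depend on how well each gene's end is captured and H2-Q7 has near-identical neighbours, between which reads may be split or lost. Its level is therefore uncertain, and levels are compared between classes and not between genes.

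The classical heavy chains and the light chain were highest in Cx3cr1+ macrophages and Ccr7+ DCs and lowest in thymocytes. H2-K1 was at 4372, 4937 and 3506 CPM in Cx3cr1+ macrophages and at 3972, 3771 and 3340.1 CPM in Ccr7+ DCs, the mature DC class. In thymocytes it was at 1076, 1378 and 769 CPM. All thymocyte sums lay below all sums of both other classes. H2-D1 was at 4151, 3886 and 3512 CPM in Ccr7+ DCs, at 3434, 3826 and 2980.1 CPM in Cx3cr1+ macrophages and at 927, 1209 and 764 CPM in thymocytes. B2m was at 5823, 8588 and 6865 CPM in Cx3cr1+ macrophages, at 4899.6, 6503 and 5667 CPM in Ccr7+ DCs and at 1741, 2156 and 1415 CPM in thymocytes. From the highest to the lowest class mean the span was 3.98-fold for H2-K1, 3.98-fold for H2-D1 and 4.01-fold for B2m.

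**Figure D1:**
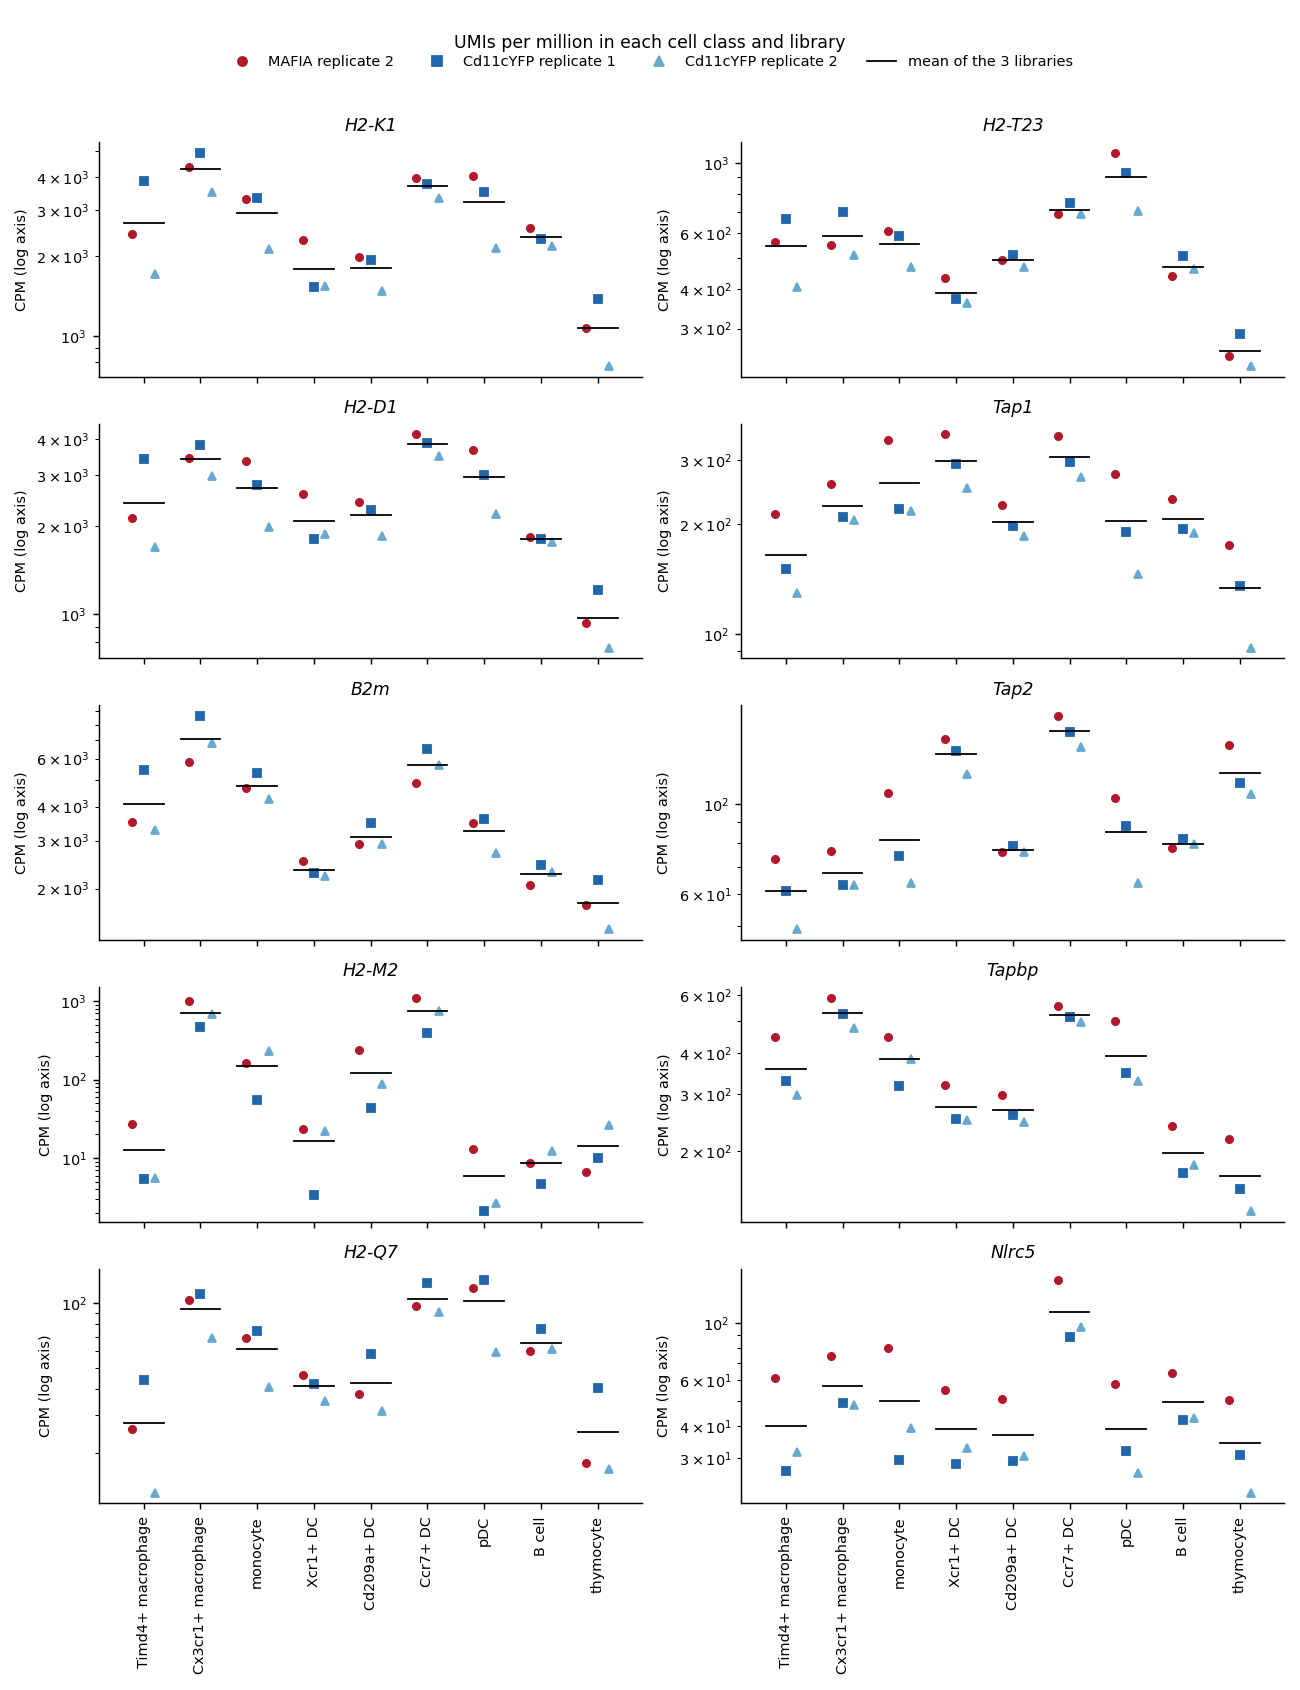
Level of each member in the 9 large cell classes, in CPM (log axis), with a point per library and a bar at the mean of 3 libraries. H2-M2 spans 125-fold between class means, against 2.28-fold to 4.17-fold for the other 9 members, and thymocytes are lowest for 8 of the 10.

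In between, the order of classes was mostly not resolved. Over all 10 members only 11 of 80 neighbouring pairs of classes had library values that did not overlap. For H2-K1 the next classes were pDCs (3228 ± 968 CPM, mean ± SD, n = 3 libraries), monocytes (2916 ± 679), Timd4+ macrophages (2669 ± 1084) and B cells (2363 ± 191), each overlapping with its neighbour in that order. B cells did not overlap with the next class, Cd209a+ DCs (1802 ± 286), and Xcr1+ DCs (1794 ± 445) did not overlap with the last class, thymocytes (1074 ± 305). For B2m the gap lay between Cd209a+ DCs (3095 ± 323) and the classes beneath them, Xcr1+ DCs (2344 ± 155), B cells (2267 ± 185) and thymocytes (1771 ± 372). H2-D1 had a single gap, that between B cells (1806 ± 37.1) and thymocytes (966 ± 225).

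The nonclassical H2-T23, whose product Qa-1 shows leader peptides of other class I chains to the CD94/NKG2 receptors of NK cells, had another leading class. It was highest in pDCs, at 1076, 930.5 and 703 CPM, against 692, 748 and 687 CPM in Ccr7+ DCs and 245, 288 and 228 CPM in thymocytes. The pDC value of Cd11cYFP replicate 2 lay within the range of Ccr7+ DCs and the other 2 above it, so these classes overlapped. The pDC class was not the same mixture in each library. Its cluster with the highest H2-T23, at 1336 CPM, held 311, 14 and 11 cells, and the part of this mixture was not tested. H2-Q7, a heavy chain of the Qa-2 antigen that is tied to the membrane by a lipid anchor, was at 97.7, 125 and 90.9 CPM in Ccr7+ DCs, 118, 129 and 59.4 CPM in pDCs and 104, 111 and 68.6 CPM in Cx3cr1+ macrophages. All of these overlapped, and no neighbouring pair of classes was resolved for H2-Q7.

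The transporter subunits did not share one order. Tap1 was highest in Ccr7+ DCs (349.7, 296 and 270.4 CPM) and Xcr1+ DCs (353, 292 and 251 CPM) and lowest in thymocytes (175, 135 and 91.7 CPM). Tap2 was also highest in Ccr7+ DCs (164, 150.4 and 138 CPM) and Xcr1+ DCs (145, 135 and 118 CPM), but thymocytes came next (139.8, 113 and 105 CPM) and did not overlap with the class after them. Timd4+ macrophages had the lowest Tap2, at 73.0, 61.0 and 49.1 CPM. Tapbp was highest in Cx3cr1+ macrophages (589.6, 527 and 477 CPM) and Ccr7+ DCs (558, 515 and 497 CPM). Nlrc5 was highest in Ccr7+ DCs, at 147, 88.6 and 96.3 CPM, and did not overlap with the next class, Cx3cr1+ macrophages, at 74.7, 49.2 and 48.0 CPM.

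Ccr7+ DCs are the migratory, mature state of conventional DCs, which Xcr1+ DCs (the cross-presenting class) and Cd209a+ DCs have not entered. The first comparison asked how class I genes differ between these classes. Cells in cycle were unevenly spread over them: clusters with cell cycle genes among their leading genes held 1566 of 4870 Xcr1+ DCs, 63 of 1338 Cd209a+ DCs and 102 of 4596 Ccr7+ DCs. In sums over a class nearly the whole set was higher in mature cells. Against Cd209a+ DCs, 10 of 10 members were called higher, where 45.2% of all genes tested were called (23.5% higher, 21.7% lower). Against Xcr1+ DCs, 8 of 10 were called higher and 0 lower, where 54.1% of all genes were called (28.7% higher, 25.4% lower). The median log2 fold change of the members was 1.28 and 1.10, beside 0.10 and 0.13 over all genes. All 18 calls kept their side of the threshold under every alternative run, including 1 without the cycling clusters, chosen after seeing the data, in which H2-M2 against Xcr1+ DCs was at 5.13. Both comparisons share the Ccr7+ sums.

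Nlrc5 was at 147, 88.6 and 96.3 CPM in Ccr7+ DCs, 55.0, 28.6 and 33.0 CPM in Xcr1+ DCs and 50.9, 29.3 and 30.5 CPM in Cd209a+ DCs. Its lowest class sum in mature cells was above the highest in either of the other classes. Single clusters overlapped with those of Xcr1+ DCs. Nlrc5 ran from 40.5 to 143 CPM over the 9 Ccr7+ clusters and from 19.5 to 69.3 CPM over the 11 Xcr1+ clusters. Over the 3 Cd209a+ clusters it ran from 19.0 to 40.3 CPM. The log2 fold change was 1.64 ± 0.18 (SE, edgeR adjusted p = 7.00e-09) against Xcr1+ DCs and 1.91 ± 0.19 (SE, edgeR adjusted p = 1.07e-09) against Cd209a+ DCs. H2-K1, at 3972, 3771 and 3340.1 CPM in Ccr7+ DCs, was at 2308, 1531 and 1544 CPM in Xcr1+ DCs and 1989.9, 1944 and 1473 CPM in Cd209a+ DCs. Mature cells were again above both in every library, by 1.15 ± 0.20 (SE, edgeR adjusted p = 1.40e-05) and 1.37 ± 0.20 (SE, edgeR adjusted p = 1.45e-06) on the log2 scale. For B2m, at 2519.8, 2283 and 2229 CPM in Xcr1+ DCs and 2905, 3467 and 2911 CPM in Cd209a+ DCs, the differences were 1.37 ± 0.17 (SE, edgeR adjusted p = 4.95e-08) and 1.19 ± 0.17 (SE, edgeR adjusted p = 6.99e-07). H2-D1 differed by 0.98 and 1.14, H2-Q7 by 1.44 and 1.66, H2-T23 by 0.97 and 0.84, and Tapbp by 1.05 and 1.29, all called with the same sign in 3 of 3 libraries.

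**Figure D2:**
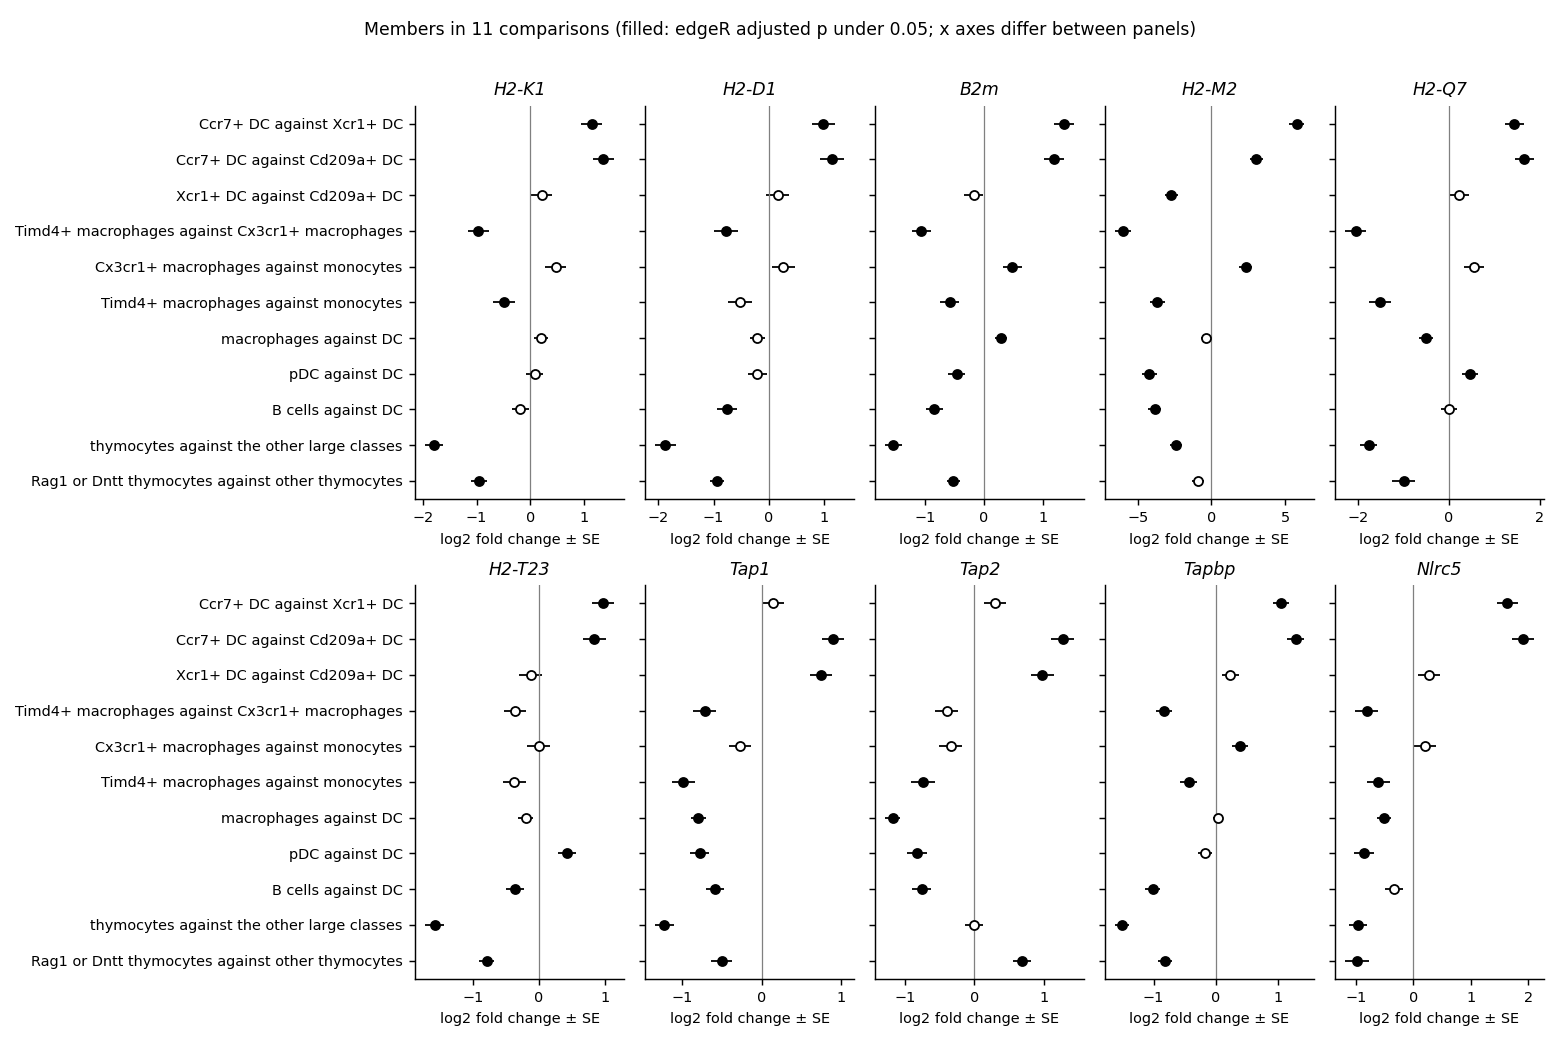
log2 fold change of the 10 members in the class comparisons, as the edgeR estimate with bars of 1 SE, filled where the edgeR adjusted p is under 0.05. In Ccr7+ DCs against Cd209a+ DCs all 10 members are called higher, and in thymocytes against the other classes 9 are called lower and Tap2 lies at 0.

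The transporter subunits were the 2 members not called between Ccr7+ and Xcr1+ DCs. The log2 fold change was 0.15 ± 0.14 (SE, edgeR adjusted p = 0.39) for Tap1 and 0.29 ± 0.16 (SE, edgeR adjusted p = 0.12) for Tap2. Against Cd209a+ DCs they were higher in mature cells by 0.90 ± 0.14 (SE, edgeR adjusted p = 4.09e-06) and 1.28 ± 0.16 (SE, edgeR adjusted p = 1.51e-07). Not every Ccr7+ cluster followed. The Ccr7+ cluster lowest in both genes (300 cells) held Tap1 at 155 CPM and Tap2 at 73.9 CPM. Over the Cd209a+ clusters Tap1 ran from 178 to 218 CPM and Tap2 from 62.0 to 85.6 CPM. Both also separated Xcr1+ from Cd209a+ DCs: Tap1 was at 353, 292 and 251 CPM in Xcr1+ DCs and 226, 197 and 186 CPM in Cd209a+ DCs, and Tap2 at 145, 135 and 118 CPM and 76.2, 78.6 and 76.0 CPM. Neither gene's values overlapped between the classes. The log2 fold change was 0.75 ± 0.14 (SE, edgeR adjusted p = 9.63e-05) for Tap1 and 0.98 ± 0.16 (SE, edgeR adjusted p = 1.89e-05) for Tap2, higher in Xcr1+ DCs in 3 of 3 libraries. With H2-M2, which was lower in Xcr1+ DCs with a log2 fold change of -2.72 (edgeR adjusted p = 1.94e-05), these made 3 calls among 10 members, close to the 30.7% of all genes called (16% higher, 14.7% lower).

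Other genes of the pathway were read from lists of related genes. Counts from these lists are to be read beside the share of all genes called, given with the members in each comparison. Of the 6 genes of the immunoproteasome and its activator, 5 were higher and 1 lower in Ccr7+ than in Cd209a+ DCs, among them Psme2 (2.29) and Psme1 (1.5), subunits of the PA28 activator, and the list's median was 1.07. Between Ccr7+ and Xcr1+ DCs only 2 of these 6 were higher and 1 lower. Of 8 loading chaperones and trimming enzymes, 2 were higher and 5 lower in Ccr7+ DCs in each comparison. Tapbpl, a tapasin-related peptide editor, was higher by 1.69 ± 0.16 (SE, edgeR adjusted p = 5.51e-10) and 2.83 ± 0.18 (SE, edgeR adjusted p = 1.16e-13), whereas Hspa5, a chaperone of the endoplasmic reticulum, was lower than in Xcr1+ DCs, at -1.74.

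Of 15 enhanceosome and interferon factors, 8 were higher in mature cells in each comparison, with 4 lower against Xcr1+ DCs and 2 lower against Cd209a+ DCs. Irf1, an interferon regulatory factor that acts on class I genes, was higher by 3.47 ± 0.31 (SE, edgeR adjusted p = 7.85e-11) and 2.99 ± 0.30 (SE, edgeR adjusted p = 1.96e-09). Interferon-stimulated genes differed in direction between the comparisons. Among 20 of them, 10 were higher and 3 lower against Xcr1+ DCs, but 4 were higher and 13 lower against Cd209a+ DCs. Gbp2 and Gbp4, interferon-induced GTPases, were higher in both (5.18 and 2.79 for Gbp2). In Xcr1+ against Cd209a+ DCs, 0 of the 20 were higher and 10 lower, with Rtp4 at -4.18. There, 4 of 6 genes of the immunoproteasome and its activator were higher and 0 lower, with Psmb9, a catalytic subunit, at 1.39.

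H2-M2 had the most restricted distribution of the 10 members. It was at 1104, 388 and 759 CPM in Ccr7+ DCs and 1003, 464 and 685 CPM in Cx3cr1+ macrophages. Monocytes followed, at 163, 55.7 and 232 CPM, and then Cd209a+ DCs, at 237, 43.7 and 87.2 CPM. In pDCs it was at 13.2, 2.11 and 2.64 CPM. The leading 2 classes did not overlap with monocytes, and the ratio between the highest and the lowest class mean was 125. The gene was higher in Ccr7+ DCs than in Xcr1+ DCs by 5.77 ± 0.51 (SE, edgeR adjusted p = 8.33e-11) and than in Cd209a+ DCs by 3.05 ± 0.45 (SE, edgeR adjusted p = 1.60e-06) on the log2 scale. In each of the 9 classes Cd11cYFP replicate 1 lay below Cd11cYFP replicate 2.

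**Figure D3:**
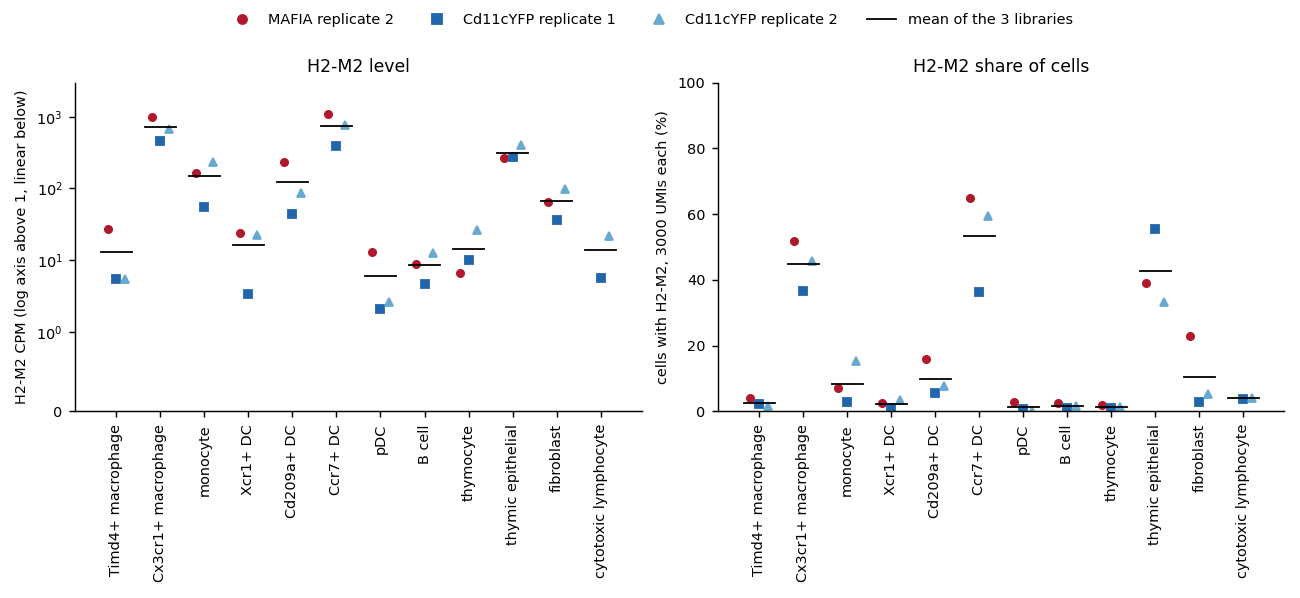
H2-M2 by class and library: the level in CPM on an axis that is logarithmic above 1 and linear below (left) and the percentage of cells with at least 1 H2-M2 UMI after each cell was reduced to 3000 UMIs (right). Points are libraries, bars their mean, and the thymic epithelial, fibroblast and cytotoxic lymphocyte classes are small, the first including 11 cells of a cluster led by Pth. Ccr7+ DCs and Cx3cr1+ macrophages hold 36.2% to 64.8% of cells with the gene, and B cells and thymocytes 0.97% to 2.47%.

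The share of cells in which H2-M2 was detected was compared after each cell had been reduced at random to 3000 UMIs, with no cell of these classes left out. It was detected in 64.8, 36.2 and 59.4% of Ccr7+ DCs and 51.8, 36.7 and 45.8% of Cx3cr1+ macrophages. Without the reduction the shares were 77.1, 51.2 and 76.4% and 69.3, 48.8 and 58.4%. Neither class therefore carried detectable H2-M2 in all of its cells at this depth. B cells and thymocytes served as the background, with 2.47, 0.972 and 1.57% and 2.06, 1.02 and 1.32% at 3000 UMIs. Their median depths were 12737, 10302 and 11125 UMIs per B cell and 15070.0, 8910.0 and 10119.5 per thymocyte, against 16670.0, 13789.5 and 14229 per Ccr7+ DC and 24832, 19182 and 16977 per Cx3cr1+ macrophage.

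Xcr1+ DCs (2.60, 0.989 and 3.35%), Timd4+ macrophages (4.02, 2.29 and 1.76%) and pDCs (2.78, 0.889 and 0%) had shares whose 95% exact binomial intervals overlapped those of B cells in each library but 1, and at the level of the whole class they are not told from background. The exception was Xcr1+ DCs of Cd11cYFP replicate 2, with an interval of 2.72% to 4.09%, against 0.93% to 2.46% in B cells. In pDCs of Cd11cYFP replicate 2, 0 of 133 cells had a UMI, with an upper bound of 2.74%. Monocytes (7.19, 2.83 and 15.3%) and Cd209a+ DCs (16.0, 5.64 and 7.61%) lay in between. The intervals cover counting error only, and free RNA can add to every share.

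H2-M2 also varied inside classes. In the 2 monocyte clusters it was at 7.21 CPM in the cluster led by S100a8 and S100a9 (271 cells) and at 147 CPM in the other (842 cells). Over the 4 clusters of Cx3cr1+ macrophages it ran from 576 to 854 CPM, and over the 9 clusters of Ccr7+ DCs from 287 to 812 CPM. Within Xcr1+ DCs 1 of 11 clusters, led by Cxcl9 and Dnase1l3, was at 123 CPM, near the level of Cd209a+ DCs, and the others ran from 0.91 to 12.1 CPM. That cluster held 96, 134 and 298 cells, or 10.8, 11 and 10.8% of the class. Over the 7 pDC clusters the level ran from 3.27 to 48.9 CPM, and within Cd209a+ DCs 3 clusters ran from 16.9 to 171 CPM. In the background classes it ran from 3.66 to 33.0 CPM over the B cell clusters and from 0 to 64.8 CPM over the thymocyte clusters. The pDC range lay within that of thymocytes. Markers of Ccr7+ DCs summed to 266, 159.7 and 145 CPM in Cx3cr1+ macrophages, 716, 418 and 462 CPM in Cd209a+ DCs and 155, 181 and 212 CPM in Xcr1+ DCs, against 8385, 8575 and 8711 CPM in the class itself, with none of the 7 at 0. Their part in the H2-M2 of these classes was not tested.

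Timd4+ and Cx3cr1+ macrophages are the populations that the study told apart, and class I presentation was one of the features by which they were compared. In Timd4+ macrophages 8 of 10 members were called lower than in Cx3cr1+ macrophages and 0 higher, where 29.5% of all genes were called (16.8% lower, 12.7% higher). H2-K1, B2m, H2-M2 and H2-Q7 are among these 8 and had been picked by the study from these same libraries. The count is therefore not independent evidence. The calls outside that pick were H2-D1, Tap1, Tapbp and Nlrc5. The members' median was -0.82, beside -0.06 over all genes. H2-K1 was at 2437, 3850.0 and 1721 CPM in Timd4+ and 4372, 4937 and 3506 CPM in Cx3cr1+ macrophages. The ranges overlapped, but the Timd4+ value was lower within each library, and the log2 fold change was -0.97 ± 0.20 (SE, edgeR adjusted p = 3.20e-04). B2m was at 3516, 5435 and 3289.7 CPM against 5823, 8588 and 6865 CPM, without overlap, with a log2 fold change of -1.07 ± 0.17 (SE, edgeR adjusted p = 8.38e-06).

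H2-M2 was at 27.6, 5.42 and 5.51 CPM in Timd4+ macrophages, below every Cx3cr1+ sum, with a log2 fold change of -6.00 ± 0.55 (SE, edgeR adjusted p = 7.82e-10). H2-Q7 was at 26.0, 43.7 and 13 CPM against 104, 111 and 68.6 CPM, again without overlap, with -2.06 ± 0.24 (SE, edgeR adjusted p = 4.90e-08). Tapbp was at 448, 329 and 298 CPM against 589.6, 527 and 477 CPM and differed by -0.83 ± 0.13 (SE, edgeR adjusted p = 1.18e-05). These 5 calls held under every alternative, though the size of the H2-M2 difference did not. Among the 5 only Tapbp had not been picked by the study. It was at -6.95 without MAFIA replicate 2, -4.16 at a clustering resolution of 0.3, -3.39 with all variable genes in the clustering, -4.58 at a mitochondrial limit of 5% and -5.07 with cells named one by one from markers. The other 3 did not. H2-D1, at -0.78 with all libraries, was at -0.64 (edgeR adjusted p = 0.19) without Cd11cYFP replicate 2. With no block for the library Tap1, at -0.72 in the main model, was at -0.69 (edgeR adjusted p = 0.0633) and Nlrc5, at -0.81, was at -0.73 (edgeR adjusted p = 0.25). H2-T23 (-0.37) and Tap2 (-0.40) were not called.

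Of the genes of the immunoproteasome and its activator, 6 of 6 were lower in Timd4+ macrophages. Psmb8 and Psmb10, catalytic subunits, differed by -1.0 ± 0.14 (SE, edgeR adjusted p = 7.61e-07) and -0.84 ± 0.16 (SE, edgeR adjusted p = 1.29e-04). Among 15 enhanceosome and interferon factors, 0 were higher and 5 lower, including Rfx5 (-0.68) and Rfxap (-0.66), subunits of the RFX complex of the SXY module. Of 20 interferon-stimulated genes 1 was higher and 6 lower, with Ifi44 at -1.84 and Oasl2 at -1.70. Chaperones and trimming enzymes were mostly not called, with 1 of 8 higher and 1 lower. In contrast, Fcgrt, the neonatal Fc receptor and a class I relative that binds B2m but no peptide, was higher in Timd4+ macrophages by 3.34 ± 0.30 (SE, edgeR adjusted p = 5.89e-10). Thymocyte markers summed to 51.6, 15.6 and 11 CPM in Timd4+ and 25.1, 13.6 and 10.11 CPM in Cx3cr1+ macrophages, against 2827, 4180.1 and 3615 CPM in thymocytes, and their part in the differences was not tested.

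Against monocytes, 3 of 10 members were higher in Cx3cr1+ macrophages and 0 lower, where 25.3% of all genes were called (14.1% higher, 11.3% lower). Of these 3, H2-M2 and B2m were among the genes that the study had picked from these libraries. H2-M2 was higher by 2.32 ± 0.44 (SE, edgeR adjusted p = 1.67e-04), and this call held under every alternative. Its size depended on how cells were assigned to these classes, at 4.43 with all variable genes in the clustering and 5.43 with cells named one by one from markers. B2m (0.48) and Tapbp (0.39) were called with all libraries, but without Cd11cYFP replicate 1 or without Cd11cYFP replicate 2 the count fell to 1. B2m was then at 0.43 (edgeR adjusted p = 0.12) and 0.42 (edgeR adjusted p = 0.27). The monocyte class was not the same mixture in each library: the cluster led by S100a8 and S100a9 gave 194 of 320 monocytes in MAFIA replicate 2 but 51 of 636 and 26 of 157 in the Cd11cYFP libraries. Interferon-stimulated genes were lower in Cx3cr1+ macrophages for 12 of 20, with Isg15 at -1.55, and higher for 1.

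In Timd4+ macrophages 8 of 10 members were lower than in monocytes, where 39% of all genes were called (20% lower, 19% higher). Of these, H2-Q7 (-1.51), Tap1 (-0.99) and Tap2 (-0.74) held under every alternative. Without Cd11cYFP replicate 2 the count was 4. H2-K1 was just inside the threshold at -0.49 ± 0.20 (SE, edgeR adjusted p = 0.0499). H2-M2 was lower, with a log2 fold change of -3.68 ± 0.52 (SE, edgeR adjusted p = 1.05e-06). It was at -4.74 without MAFIA replicate 2 and -3.06 without Cd11cYFP replicate 2. A clustering resolution of 0.3 gave -1.86 and a mitochondrial limit of 5% gave -2.22. However, it was at 1.04 (edgeR adjusted p = 0.13) when the clustering used all variable genes. With cells named one by one from markers it was at 0.35 (edgeR adjusted p = 0.50). Its direction therefore depended on how cells were assigned to Timd4+ macrophages and monocytes. Which of these classes made the shift was not tested. Of the genes of the immunoproteasome and its activator, 6 of 6 were again lower in Timd4+ macrophages, with Psmb8 at -1.66.

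Averaged over both macrophage classes and all 3 DC classes, macrophages had 1 member higher and 4 lower than DCs. That is near the background, since 56.9% of all genes were called (27.5% higher, 29.4% lower). The transporter subunits were the 2 calls that held under every alternative. Tap1 was at 214, 150.4 and 129 CPM in Timd4+ macrophages and 258, 209 and 206 CPM in Cx3cr1+ macrophages, and the log2 fold change against DCs was -0.80 ± 0.09 (SE, edgeR adjusted p = 1.23e-08). Tap2 was at 76.7, 63.2 and 63.3 CPM in Cx3cr1+ macrophages, and differed by -1.18 ± 0.11 (SE, edgeR adjusted p = 1.57e-10). The direction did not hold against each DC class taken alone. Tap2 in Cx3cr1+ macrophages lay below every Xcr1+ and Ccr7+ DC value but overlapped with Cd209a+ DCs (76.2, 78.6 and 76.0 CPM), and Tap1 in Cx3cr1+ macrophages was above Cd209a+ DCs (226, 197 and 186 CPM) in 3 of 3 libraries. B2m was higher (0.29) and H2-Q7 (-0.51) and Nlrc5 (-0.51) lower. Without Cd11cYFP replicate 2 only 3 calls were left, and B2m was at 0.36 (edgeR adjusted p = 0.0547). Without Cd11cYFP replicate 1 B2m was at 0.15 (edgeR adjusted p = 0.29).

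Around them, 5 of 6 genes of the immunoproteasome and its activator were lower and 0 higher in macrophages. Psmb9 was at -1.74 ± 0.11 (SE, edgeR adjusted p = 5.15e-14) and Psmb8 at -1.74 ± 0.09 (SE, edgeR adjusted p = 2.62e-16). In the other direction, 15 of 20 interferon-stimulated genes were higher and 1 lower, with Gbp7, a GTPase, at 3.74. Mr1, a class I relative that presents vitamin metabolites to MAIT cells, was higher by 3.81 ± 0.20 (SE, edgeR adjusted p = 2.96e-16), and Canx (calnexin, which folds new heavy chains) by 1.05. Wdfy4, a protein needed for cross-presentation by Xcr1+ DCs, was lower, with a log2 fold change of -2.09.

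pDCs, the class known for interferon production, had 2 of 10 members higher and 5 lower than the mean of the DC classes, where 43.6% of all genes were called (20.5% higher, 23.1% lower). H2-T23 was higher by 0.43 ± 0.14 (SE, edgeR adjusted p = 0.0114) and H2-Q7 by 0.46 ± 0.17 (SE, edgeR adjusted p = 0.0310). The pDC cluster highest in both genes had 311 of its 336 cells in MAFIA replicate 2. Without MAFIA replicate 2 they were at 0.29 (edgeR adjusted p = 0.0650) and 0.33 (edgeR adjusted p = 0.19), and without Cd11cYFP replicate 1 at 0.41 (edgeR adjusted p = 0.0792) and 0.41 (edgeR adjusted p = 0.12). Tap1 was at 275, 191 and 146 CPM and Tap2 at 103, 88.2 and 64.0 CPM, lower than in DCs, with log2 fold changes of -0.78 and -0.82. Nlrc5 (-0.85) and B2m (-0.47) were lower too. Without Cd11cYFP replicate 2 B2m was at -0.32 (edgeR adjusted p = 0.22). H2-M2 differed by -4.21, with the pDC level at background.

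In B cells 0 members were higher and 7 lower than in DCs, beside 52% of all genes called (25.7% higher, 26.3% lower). Tapbp, at 239, 172 and 182 CPM, was lower, with a log2 fold change of -1.02 ± 0.11 (SE, edgeR adjusted p = 1.09e-08). B2m, at 2069, 2436 and 2296 CPM, was lower, with a log2 fold change of -0.84 ± 0.14 (SE, edgeR adjusted p = 9.70e-06), and H2-D1, at 1839.9, 1812 and 1766 CPM, one of -0.75 ± 0.18 (SE, edgeR adjusted p = 8.52e-04). H2-K1 was not called (-0.18, edgeR adjusted p = 0.37), with 2568, 2331 and 2190.0 CPM. Of these 7 calls only that of H2-T23 (-0.36) was lost under an alternative. Of 8 chaperones and trimming enzymes, 7 were lower and 1 higher.

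Thymocytes are known to carry little class I until after selection. Against the mean of the other 8 large classes 9 of 10 members were called lower and 0 higher, where 54.5% of all genes were called (27.2% lower, 27.3% higher). H2-D1, at 927, 1209 and 764 CPM, was lower, with a log2 fold change of -1.87 ± 0.19 (SE, edgeR adjusted p = 9.14e-10) and H2-K1 one of -1.79 ± 0.17 (SE, edgeR adjusted p = 4.28e-10). B2m differed by -1.54 ± 0.14 (SE, edgeR adjusted p = 1.55e-10), H2-Q7 by -1.77, H2-T23 by -1.59, Tapbp by -1.51, Tap1 by -1.23 and Nlrc5 by -0.96, in 3 of 3 libraries each. H2-M2 was lower, with a log2 fold change of -2.40, at -1.47 without MAFIA replicate 2 and -1.20 with cells named one by one from markers, but at 0.15 (edgeR adjusted p = 0.70) with finer clusters. Tap2 alone was not called (edgeR adjusted p = 1.0), and on plain totals it was higher, at 0.44 (edgeR adjusted p = 0.00105). The thymocyte class was not uniform. Over its 9 clusters H2-K1 ran from 495 CPM (28 cells) to 2318 CPM (176 cells). The latter lay above the class means of Xcr1+ and Cd209a+ DCs (1794 and 1802 CPM). Thymocyte clusters with Dntt among their leading genes held 136, 32 and 35 cells, 79, 61 and 61 cells, and 7, 12 and 9 cells. The part of this mixture was not tested.

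Of the related genes, 7 of 8 chaperones and trimming enzymes were lower in thymocytes. So were 5 of 6 genes of the immunoproteasome and its activator, with Psmb9 at -1.23 ± 0.14 (SE, edgeR adjusted p = 8.70e-09). Among enhanceosome and interferon factors 10 of 15 were lower, with Stat2 at -2.01. Of 13 other class I heavy chains 4 were higher and 7 lower. H2-Q2, a nonclassical heavy chain of the Q region, was higher in thymocytes by 5.59 ± 0.30 (SE, edgeR adjusted p = 1.79e-15), while Fcgrt was lower, with a log2 fold change of -2.47.

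Thymocytes were then divided by Rag1 and Dntt, genes of antigen receptor rearrangement that are not members. Cells with at least 1 UMI of either (245, 129 and 121 cells) were set against those with neither (143, 360 and 183 cells). H2-K1 was at 987, 794 and 454 CPM in Rag1 or Dntt cells and 1308, 1679 and 1037 CPM in the rest. The Rag1 or Dntt cells were lower in each library and did not overlap with the rest. Tap2 went the other way, at 162, 149 and 131 CPM against 82.6, 94.0 and 83.5 CPM, again without overlap. Tapbp was at 185, 104 and 96.0 CPM against 304, 179 and 162 CPM. In a model of these 6 sums over 10236 genes, 8 members were called lower and 1 higher in Rag1 or Dntt cells, where 21.8% of all genes were called (10.8% lower, 11% higher).

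**Figure D4:**
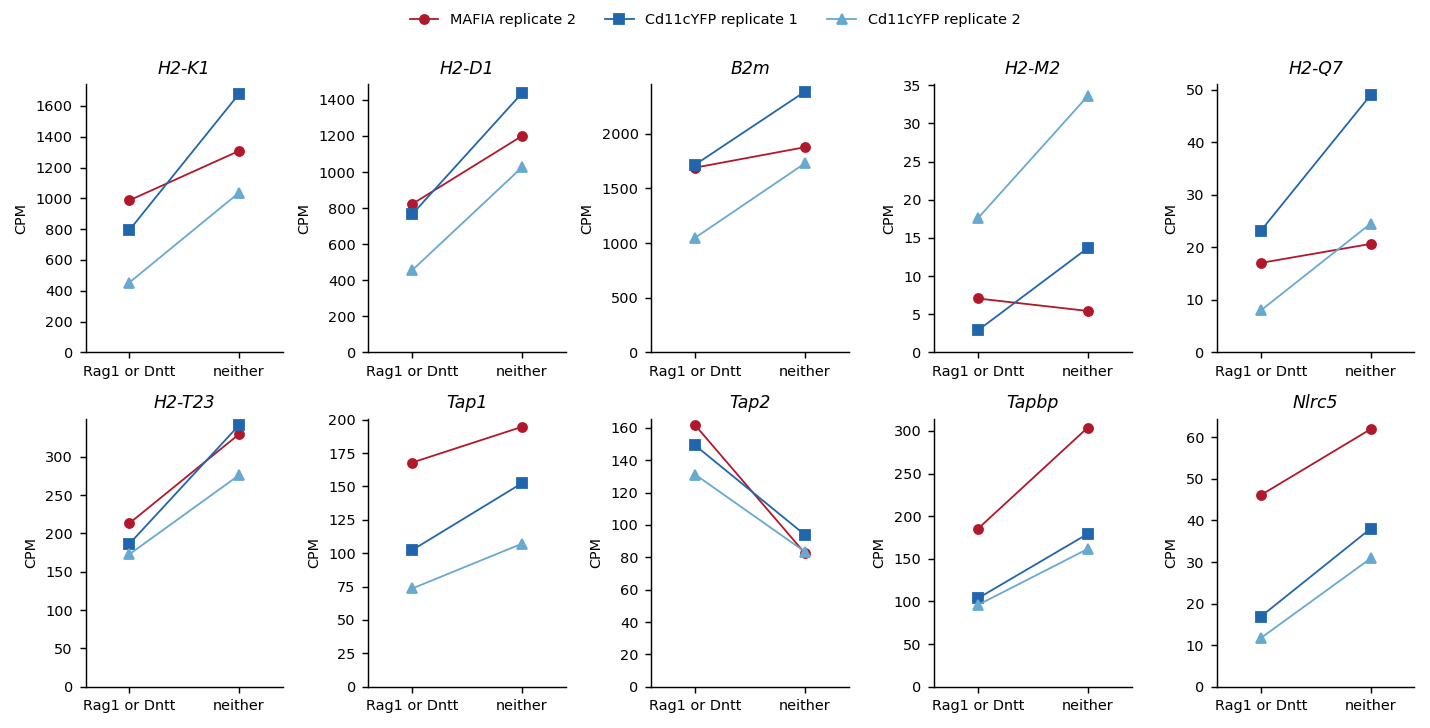
Members in thymocytes with a UMI of Rag1 or Dntt and in thymocytes with neither, in CPM, with lines joining the parts of the same library. H2-K1 lies at 454 to 987 CPM in Rag1 or Dntt cells and 1037 to 1679 CPM in cells with neither, and Tap2 at 131 to 162 CPM and 82.6 to 94.0 CPM.

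The log2 fold change was -0.96 ± 0.15 (SE, edgeR adjusted p = 0.00593) for H2-K1, -0.94 ± 0.12 (SE, edgeR adjusted p = 0.00331) for H2-D1, -0.82 ± 0.11 (SE, edgeR adjusted p = 0.00366) for Tapbp and 0.69 ± 0.13 (SE, edgeR adjusted p = 0.00996) for Tap2. H2-Q7 (-1.0), Nlrc5 (-0.98), H2-T23 (-0.80), B2m (-0.52) and Tap1 (-0.51) made up the other calls. The model had 2 residual degrees of freedom and leaned on single libraries: without Cd11cYFP replicate 1 no member was called, and without Cd11cYFP replicate 2 only 3. Without Cd11cYFP replicate 1 Tap2 was at 0.74 (edgeR adjusted p = 0.0768) and H2-K1 at -0.87 (edgeR adjusted p = 0.0805). The Rag1 or Dntt cells were also deeper, with medians of 18845, 12081 and 12272 UMIs per cell against 9048, 8287 and 9115, and a deeper cell is more likely to show a UMI of Rag1 or Dntt. The part of depth in these differences was not tested. Among 15 enhanceosome and interferon factors 5 were lower and 0 higher.

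Between libraries the members did not shift together. In each of the 9 classes Nlrc5, Tap1 and Tapbp were higher in MAFIA replicate 2 than in both Cd11cYFP libraries. The median ratio of MAFIA replicate 2 to the Cd11cYFP mean was 1.78 for Nlrc5 (1.5 to 2.33 over classes), 1.30 for Tap1 and 1.28 for Tapbp. The classes were not the same mixture of clusters in each library. The cluster led by S100a9 and S100a8, for example, held 60.6, 8.0 and 16.6% of monocytes, and 1 led by Cd207 held 48.9, 4.2 and 3.4% of Xcr1+ DCs. Single clusters were therefore compared as well, the 36 with at least 20 cells in each library. MAFIA replicate 2 was above both Cd11cYFP libraries in 34 of 36 for Nlrc5, 33 for Tap1 and 34 for Tapbp, and below both in 0. The median ratio within clusters was 1.65, 1.28 and 1.24. These clusters share the 3 libraries and are not replicates. Tap2 was above both in 7 classes, H2-D1 in 6 and H2-K1 in 5. In contrast, B2m was below both in 4 classes and above both in 1, with a median ratio of 0.91. The median for H2-M2 was 1.87, but its ratio ran from 0.365 to 5.56.

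**Figure D5:**
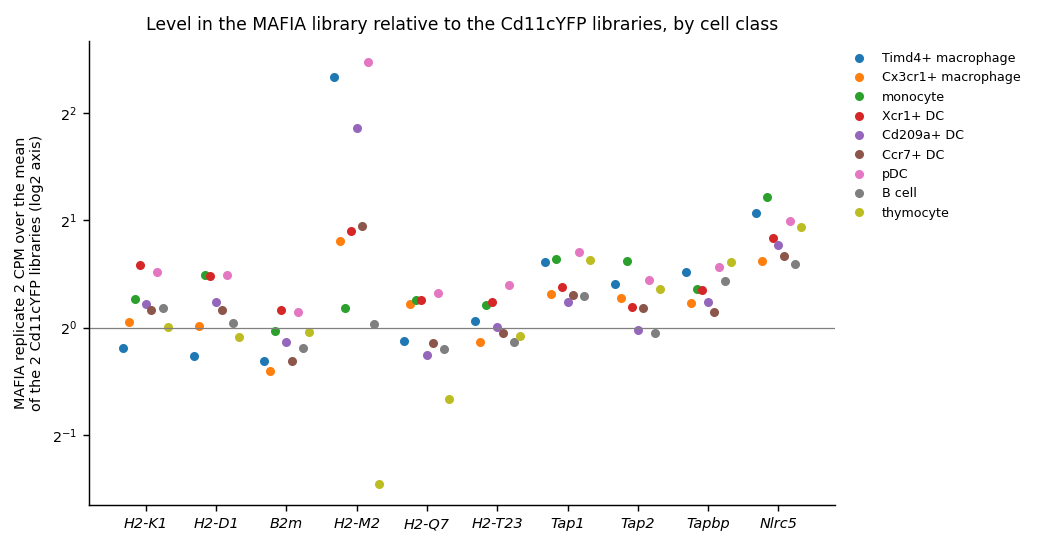
Ratio of the level in MAFIA replicate 2 to the mean level of the Cd11cYFP libraries for each member (log axis), with a point per cell class. All 9 points lie above 1 for Nlrc5, Tap1 and Tapbp, and the H2-M2 points run from 0.365 to 5.56.

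The Cd11cYFP libraries also differed from each other. Replicate 1 was above replicate 2 in 9 of 9 classes for B2m, H2-Q7, H2-T23 and Tap1, with median ratios of 1.24, 1.84, 1.25 and 1.10, and in 8 of 9 for H2-K1 (1.41) and H2-D1 (1.28). It was below replicate 2 in 9 of 9 for H2-M2 (0.501). With 1 MAFIA library in these classes no test of the reporter was run.

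The likeness of patterns was measured as Pearson's r over 27 points, the 9 classes in 3 libraries, which share libraries and depth, so it is given as a description. Over the 45 pairs of members the median r was 0.744, and 37 pairs were over 0.5 and 0 under 0. H2-K1 was most like H2-D1 (0.957), B2m (0.914) and H2-T23 (0.906). B2m and Tapbp were most like each other (0.951). Tap2 stood furthest from the rest, with r from 0.199 (B2m) to 0.707 (Tap1), and the genes most like it were Cdc37, Cox7c and Chchd2 (0.95, 0.942 and 0.94).

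For the other members the 3 most similar of all genes were mostly not members. H2-M2 was closest to Spsb1 (0.944), Ltc4s (0.915) and Ugdh (0.913). Nlrc5 was closest to Umad1 (0.94), Htra2 (0.931) and Ghitm (0.928), and Tap1 to Apip (0.958), Zfp800 (0.957) and Procr (0.952). H2-Q7 was closest to Ncf1 (0.947), H2-T22 (0.939) and Nek6 (0.875). H2-T23 was closest to Prr13 (0.935), H2-D1 (0.931) and Scpep1 (0.931). H2-D1 was closest to H2-K1, Tapbp (0.934) and Rogdi (0.931), B2m after Tapbp to Aup1 (0.933) and Ints12 (0.933), and Tapbp after B2m to Hcfc1r1 (0.944).

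In MAFIA replicate 1, over all its cells, H2-D1 was at 2941 CPM, against 2767, 2583 and 2294 CPM in the other whole libraries, and H2-T23 at 687 CPM against 552, 539 and 469 CPM. H2-Q7 (84.8 against 66.6, 75.9 and 52.4 CPM), Tap2 (116 against 110, 107 and 105 CPM) and Nlrc5 (75.8 against 71.5, 41.9 and 48.8 CPM) were also above them. Tap1 (255 against 279, 235 and 227 CPM) and Tapbp (369 against 393, 315 and 317 CPM) lay between MAFIA replicate 2 and the Cd11cYFP libraries. H2-K1 (2701 CPM) and B2m (3525 CPM) lay within the range of the other libraries. The level of H2-M2, 197 CPM, lay between theirs (308, 128 and 258 CPM). However, a UMI of H2-M2 was found in 55.6% of its cells, against 29.0, 19.1 and 32.8% in those libraries, whose cells were deeper. Free RNA was not separated from expression in this library, and its part in this share was not tested. No class comparison uses this library.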

How the data were processed

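Thymus cells sorted for GFP or YFP were profiled with 10x 3′ libraries. Each library has 1 matrix of raw UMI counts, unnormalized as the authors deposited them, with total counts of 26876378 (MAFIA replicate 1), 126700210 (MAFIA replicate 2), 138805567 and 185882793 (Cd11cYFP replicates 1 and 2). The submitters' processing notes name bcl2fastq 2.20, STAR 2.7.9a, Cell Ranger and the build GRCm39 (mm39), whereas the methods name mm10, so which build made the counts is not settled. Gene positions are from GENCODE for GRCm39, which holds 54749 of the 55418 gene IDs, and promoters from RefSeq (GRCm38.p6). Groups came from the sample labels.

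Cells with 1000 to 7000 genes and at most 10% mitochondrial UMIs were kept. In MAFIA replicate 2 and both Cd11cYFP libraries, 2000 variable genes (20 bins of mean expression, without 84 member and related genes) were reduced to 70 principal components and joined by 3 neighbours per library. Leiden clustering was run at a resolution of 0.15, and clusters of at least 200 cells were clustered again (30 components, resolution 0.5). The rule that names clusters from marker scores (a score of at least 0.6 was needed, and a runner-up of at least 0.4 and 60% of the best score made a cluster mixed) was set after the clusters had been seen, so class names and shares can differ from the study's. Likely doublets, scored against simulated ones, made up 4.97%, 6.12% and 7.74% of cells and were kept in the main analysis.

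Counts were summed per library and class (at least 10 cells, 35 sums) and fitted with edgeR 4.0.16 (quasi-likelihood test, TMM, low-count filter, library as a block, biological coefficient of variation 0.153), with Benjamini-Hochberg adjustment over all 18002 genes. The library is the block because its classes come from the same cell suspension. Thymocytes divided by Rag1 and Dntt were fitted separately. On simulated counts for Ccr7+ against Xcr1+ DCs (16839 genes), the test found 23 of 56 genes changed 1.5-fold, 59 of 68 changed 2-fold and 61 of 61 changed 4-fold, with 11 false calls. The simulation gave every gene the same coefficient of variation, lower than the 0.153 fitted, and had no library effect. Its classes were alike apart from the changed genes, which were far fewer than those called in the data. These rates may therefore be better than in the data. Shares of cells have 95% exact (Clopper-Pearson) intervals after cells were reduced to 3000 UMIs.

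Members, gene lists and tests were chosen with earlier results of these data known. The text names all members, per list and comparison genes from the 2 with the largest log2 fold change among those called with the same sign in 3 libraries, and the 3 genes most like each member. The alternatives tried were other scaling, no block, each library left out, DESeq2 1.42.0, all genes kept whatever their counts, all variable genes, other resolutions, cells named singly from markers, doublets removed, a 5% mitochondrial limit, count splitting and, chosen after seeing the data, monocytes without 1 cluster and DCs without cycling clusters. Python 3.11.15, scanpy 1.11.5, leidenalg 0.10.2 and R 4.3.3 were used. Some items that the naming rule picked are not reported here.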

Additional observations from a re-analysis of the deposited data

Results flagged for a closer look

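In 8 of 110 combinations of a member and a comparison, MAFIA replicate 2 differed in one direction and both Cd11cYFP libraries in the other. None of these 8 differences was called in its comparison (edgeR adjusted p of 0.05 or more), the differences between libraries were not tested, and reporter, age, sex and library cannot be told apart. The log2 differences in MAFIA replicate 2, Cd11cYFP replicate 1 and Cd11cYFP replicate 2 were as follows. For Xcr1+ against Cd209a+ DCs they were 0.024, -0.41 and -0.18 for B2m and 0.039, -0.27 and -0.17 for H2-T23. For Cx3cr1+ macrophages against monocytes they were -0.051, 0.36 and 0.50 for H2-D1, -0.23, 0.16 and 0.05 for H2-T23, and -0.19, 0.63 and 0.20 for Nlrc5. The monocytes of MAFIA replicate 2 came mostly from another cluster (194 of 320 cells) than those of the Cd11cYFP libraries (51 of 636 and 26 of 157), and the part of this mixture was not tested. For pDCs against DCs Tapbp was at 0.11, -0.26 and -0.40. For B cells against DCs H2-Q7 was at -0.17, 0.01 and 0.14. For Rag1 or Dntt against other thymocytes H2-M2, at background in these cells, was at 0.25, -2.06 and -0.95.

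MAFIA replicate 1, which no comparison uses, held all 10 members, and its whole-library levels are listed because they lie outside the main measurement. They were 2701 CPM for H2-K1, 2941 CPM for H2-D1, 3525 CPM for B2m, 197 CPM for H2-M2, 84.8 CPM for H2-Q7, 687 CPM for H2-T23, 255 CPM for Tap1, 116 CPM for Tap2, 369 CPM for Tapbp and 75.8 CPM for Nlrc5. The mixture of cell classes in this library was not determined at its depth (median 3981 UMIs per cell).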

How the results depend on the processing

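Of 77 calls of members, 49 kept their direction and side of the threshold under every alternative (15 planned, and 1 each for the monocyte comparisons and those between DC classes, chosen after seeing the data). Among single member values, 1540 stayed as they were under an alternative, 101 lost their call, 54 gained one and 5 reversed. Reversed were H2-M2 in Timd4+ macrophages against monocytes, at 1.04 with all variable genes in the clustering and 0.35 with cells named singly from markers, H2-M2 in macrophages against DCs, at 0.70 with all variable genes, and in thymocytes Tap2, at 0.44 on plain totals, and H2-M2, at 0.15 at resolution 1.0. The cause was not tested. All called values that moved by over 1.5 times were those of H2-M2. Counts of members called moved as follows. Xcr1+ against Cd209a+ DCs had 3, with 5 at resolution 0.3, 5 with count splitting and 7 with cells named singly. Cx3cr1+ macrophages against monocytes had 3, with 5 on plain totals, 6 at resolution 1.0, 7 with cells named singly, 1 without doublets, 1 to 4 with a library left out and 3 without the S100a8 cluster. Timd4+ macrophages against monocytes had 8, with 4 on plain totals, 3 with all variable genes, 3 with cells named singly, 4 to 9 with a library left out and 6 without the S100a8 cluster. Macrophages against DCs had 5, with 8 without a low-count filter and 3 to 6 with a library left out. In Rag1 or Dntt thymocytes the 9 calls became 0 to 10 with a library left out. The library is the replicate block of the main model, since its classes share an animal and droplets. With no replicate block the counts were 1 for Cx3cr1+ macrophages and 4 for Timd4+ macrophages against monocytes, 2 for macrophages and 4 for pDCs against DCs, and 3 in Rag1 or Dntt thymocytes, and 21 member calls were lost in all, none of them in the Ccr7+ comparisons.
The count of genes called fell by over 1.5 times from the main fit in 10 cases and rose in 1. With 2 of 3 libraries it was 3506 and 3304 of 5532 for Xcr1+ against Cd209a+ DCs, 3376 and 3033 of 5310 for Timd4+ against Cx3cr1+ macrophages and 2464 and 2739 of 4557 for Cx3cr1+ macrophages against monocytes, without Cd11cYFP replicates 1 and 2. In Rag1 or Dntt thymocytes, with 2228 genes, it was 1345 with DESeq2, 1412 with no replicate block, and 469 to 3431 with a library left out. On plain totals 31.5% to 73.4% of calls were higher, against 43.1% to 55.5% on the main scale. Depth limits H2-M2 in the low classes, where its shares are near background. Shares of cells were also taken at 5000 UMIs per cell, without reduction and with each library left out. Over all of these 16 shares moved and 44 did not. At 1.5-fold the simulated test found 41.1% of changed genes, so a member without a call is not shown to be equal.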

Other observations

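Small clusters gave further values of H2-M2, each from few cells. A cluster with markers of thymic epithelium (23, 16 and 24 cells), led by Ubd and Fcgbp with the keratins Krt8 and Krt17, held H2-M2 at 392 CPM and H2-K1 at 3613 CPM. A cluster of 11 cells led by Pth and Chga, which the marker score placed with it but which had none of the epithelial markers among its leading genes, is left unnamed. It held no UMI of H2-M2 and H2-K1 at 293 CPM. Fibroblast-like cells (13, 72 and 56) held it at 64.6, 36.8 and 97.7 CPM. These cells were sorted for a myeloid reporter, the median depth of the epithelial cluster was 19977 UMIs per cell, and whether other cells share their droplets was not tested.

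Other class I heavy chains, of which 13 of 16 were tested in the model of 18002 genes and 10 in that of the divided thymocytes, included genes called in both directions in every comparison. Cd1d1, which presents lipids to NKT cells, was higher in Ccr7+ than in Cd209a+ DCs by 4.58 ± 0.29 (SE, edgeR adjusted p = 2.04e-13) and higher in Xcr1+ than in Cd209a+ DCs by 2.60 ± 0.30 (SE, edgeR adjusted p = 6.58e-08). Hfe, a class I relative of iron regulation, had a log2 fold change of -3.63 ± 0.25 (SE, edgeR adjusted p = 2.98e-13) in B cells and -3.04 ± 0.26 (SE, edgeR adjusted p = 3.61e-11) in pDCs against DCs. H2-T24 was higher in macrophages than in DCs by 2.79 ± 0.16 (SE, edgeR adjusted p = 1.82e-15). Of 9 genes tied to cross-presentation, 2 were higher and 3 lower in Ccr7+ than in Xcr1+ DCs, and 2 higher and 3 lower in Xcr1+ than in Cd209a+ DCs. Of all genes, 54.1% and 30.7% were called in these comparisons, so the first count is near the background. Cybb, the NADPH oxidase subunit that keeps phagosomes from acidifying, had a log2 fold change of -4.68 ± 0.48 (SE, edgeR adjusted p = 6.80e-09) in Xcr1+ against Cd209a+ DCs and of 4.11 ± 0.28 (SE, edgeR adjusted p = 1.12e-13) in macrophages against DCs.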
